A study of Homo sapiens with 6 samples.

Results

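The integrin and laminin subunit genes were taken from the RNA-seq table as the protein-coding genes named ITGA, ITGB, LAMA, LAMB or LAMC with a subunit number or letter. The rule found 38 genes among the 58735 in the table: 18 integrin alpha subunits, 8 integrin beta subunits and 12 laminin chains. The cells were KYSE410, a human cell line of oesophageal squamous cell carcinoma, whose labels also carry the tissue of origin, the oesophagus. There were 3 libraries of control cells, titled NC and also called wild type, and 3 libraries of cells with ADAR1 knocked down (siADAR1). All 6 were grown in the same serum-containing medium, carry the same batch value and have no further treatment, and the labels do not say what the control cells received, so effects of the siRNA itself and of ADAR1 loss cannot be told apart. No label says that replicates were separate cultures, and the p-values then reflect only how far these samples lie from each other, which may be technical.

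Integrins are cell surface receptors made of 1 alpha and 1 beta subunit, and the pair decides what the receptor binds. Laminins are basement membrane proteins made of 1 alpha, 1 beta and 1 gamma chain, and each laminin is named after the numbers of its chains. In stratified epithelia such as the oesophagus, basal cells hold on to laminin-332 through integrin α6β4, which sits in hemidesmosomes, and through α3β1, which sits in focal contacts. Both receptors also bind laminin-511, and integrins of the αV group and α5β1 bind proteins with an RGD motif such as fibronectin. ADAR1 edits double-stranded RNA by turning adenosines into inosines.

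Total counts were 15497788 to 17329443 in the control libraries and 15175619 to 16903792 in the siADAR1 libraries. ADAR, which encodes ADAR1, was at 455, 431 and 443 CPM (counts scaled to library size) in control replicates 1 to 3 and at 92.6, 95.6 and 77.5 in siADAR1. Its log2 fold change was -2.32 ± 0.09 (SE; edgeR quasi-likelihood test, adjusted p = 1.06e-08), so the libraries matched their labels. Of 11 squamous epithelium markers, 10 had enough counts to be tested, including TP63 at a mean of 124 CPM in control and 174 in siADAR1, whereas the basal keratin KRT14 had too few. KRT5, the other classical basal keratin, was at 33.9 CPM in control and 23.3 in siADAR1. Among those 10 markers 3 rose and 4 fell, from DSG3 at a log2 fold change of 1.54 to KRT6A at -2.24. Over all genes tested, 26.0% were called higher and 25.0% lower, and no shift of the list as a whole is read from its 10 genes. In RNA from whole cultures, fewer cells of a type and less RNA per cell cannot be told apart.

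Of the 38 genes, 25 had enough counts to be tested: 8 integrin alpha, 6 integrin beta and 11 laminin genes. Among them 8 were higher and 7 lower in siADAR1 at an adjusted p below 0.05, and 10 did not pass. Over all 15294 genes tested, 26.0% were called higher and 25.0% lower, so both shares among integrin and laminin genes were near the background. The median log2 fold change of the 25 was 0.02, against 0.00 over all genes. The control and siADAR1 libraries did not overlap for 18 of the 25, against 60.3% of all tested genes. Of the 25, ITGB8 and ITGB2 passed the test with a change of at least 2-fold. Over all 15294 genes tested, 2262 did so. What follows is therefore a description of which subunits moved against which, not of a shift of the families as a whole.

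The alpha and beta integrins and the laminins were divided differently among the calls. No integrin alpha subunit was called higher, 3 fell and 5 did not pass. The median log2 fold change of the 8 was -0.31. Among beta subunits 3 rose, 2 fell and ITGB1 did not pass. Among laminin chains 5 rose, 2 fell and 4 did not pass, and their median was 0.34. Over all tested genes, 26.0% were called higher and 25.0% lower. These counts and medians are descriptions of short lists, and the differences between the lists were not tested.

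**Figure D1:**
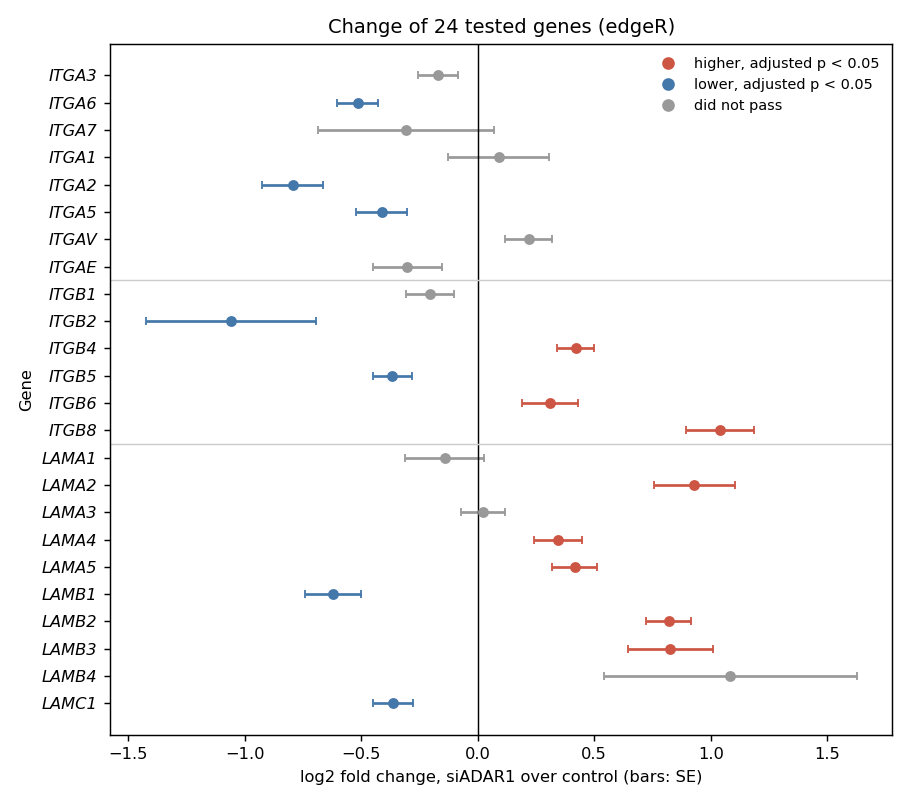
Log2 fold change of siADAR1 over control (horizontal axis) for 24 of the 25 tested genes (vertical axis; alpha integrins, beta integrins and laminins from top to bottom), with SE as bars; red marks genes called higher, blue genes called lower and grey genes that did not pass. ITGB8 has the highest called value (1.04), ITGB2 the lowest (-1.06), and no alpha integrin is red.

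The receptor best known from hemidesmosomes, α6β4, had its subunits called in opposite directions. ITGA6 (chr2:172427354-172506282, plus strand; coordinates of whole genes on GRCh38) was at 476, 486 and 510 CPM in control and at 301, 361 and 367 in siADAR1. All 3 siADAR1 libraries lay below all controls, at 70.0% of the control level (log2 fold change -0.52 ± 0.09 SE, adjusted p = 0.000356 by edgeR). ITGB4 (chr17:75721328-75757818, plus strand) was at 530, 534 and 547 CPM in control and at 726, 766 and 663 in siADAR1. The siADAR1 libraries were all higher, 1.34-fold on average (0.42 ± 0.08 SE, adjusted p = 0.000631 by edgeR). The long cytoplasmic tail of β4 links the receptor to keratin filaments, while α6 can pair with β4 or with β1.

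The levels of 2 partner subunits were compared within each library as the ratio of their deposited FPKM (fragment counts scaled to gene length and library), which allows for gene length. Each gene has a single length there, so the size of a ratio depends on the lengths used. ITGA6 over ITGB4 was 0.930, 0.942 and 0.965 in control and 0.429, 0.488 and 0.573 in siADAR1. In every control library the pair was thus near parity, and ITGA6 was clearly the lower of the pair in every siADAR1 library. The mean log2 ratio differed by -0.94 between groups. Such a comparison of 3 against 3 libraries cannot go below p = 0.1 in a two-sided exact permutation test, which is the value it had here, and 0.132 after adjustment over the 33 partner pairs examined. Of these 33 pairs, 25 had ratios that did not overlap between groups and so the same p: 7 of 11 integrin pairs and 18 of 22 pairs of laminin chains. Pairs share subunits, so they are not independent of each other, and since 60.3% of single genes did not overlap either, nothing particular to partner pairs is read from this count.

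The α3β1 receptor differed from α6β4 in that neither subunit was called. ITGA3 was at 725, 690 and 727 CPM in control and at 559, 674 and 670 in siADAR1. The groups did not overlap, but siADAR1 replicate 1 stood well below the other siADAR1 libraries, and the difference did not pass (log2 fold change -0.17 ± 0.09 SE, adjusted p = 0.116 by edgeR; -0.09 without that library). ITGB1, the beta subunit shared by most integrins, was at 552, 643 and 666 CPM in control and at 462, 560 and 592 in siADAR1. These ranges overlapped and the test was not passed (-0.21 ± 0.10 SE, adjusted p = 0.112 by edgeR), although without control replicate 1, the lowest control, the adjusted p was 0.0236. Without siADAR1 replicate 1, the lowest siADAR1 library, its log2 fold change was -0.11 (adjusted p = 0.353 by edgeR), and the adjusted p ranged from 0.0236 to 0.353 over the libraries left out in turn. ITGA3 over ITGB1 was 0.711 ± 0.082 in control and 0.725 ± 0.027 in siADAR1 (SD, n = 3 per group; exact permutation p = 0.8). ITGA6 over ITGB1 was 0.731 ± 0.055 in control and 0.588 ± 0.015 in siADAR1 (SD), without overlap.

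Between the laminin-binding alpha subunits, ITGA6 fell relative to ITGA3. In CPM, which does not allow for gene length, ITGA3 was above ITGA6 in all 6 libraries. Means of ITGA3 and ITGA6 were 714 and 491 CPM in control and 634 and 343 in siADAR1. Per length the genes were close in control. ITGA6 and ITGA3 were at 74.5 and 72.2 FPKM in control, where the ITGA3 to ITGA6 ratio lay above 1 in only 1 of 3 libraries. In siADAR1 they were at 52.0 and 64.0 FPKM, and the ratio was 1.22 to 1.25 in all 3 libraries. The ratio of ITGB4 to ITGB1, which both pair with α6, was 0.730 to 0.854 in control and 0.996 to 1.40 in siADAR1. These 2 ratios between alternative partners were chosen after the values were seen and carry no test. A further laminin-binding alpha subunit, ITGA7, known mainly from muscle, was at 1.58 CPM in control and 1.27 in siADAR1 and did not pass.

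Laminin-332, the main ligand of α6β4 and α3β1, contains the products of LAMA3 and LAMB3, of which LAMB3 was called and LAMA3 was not. LAMB3 (chr1:209614870-209652466, minus strand) was at 881, 599 and 665 CPM in control and at 1565, 1182 and 1055 in siADAR1. Every siADAR1 library exceeded every control, and replicate 1 was the highest of its group in both conditions (1.77-fold; log2 fold change 0.83 ± 0.18 SE, adjusted p = 0.00615 by edgeR). LAMA3 (chr18:23689443-23956222, plus strand), whose product carries the integrin-binding end of the trimer, was at 437, 345 and 392 CPM in control and at 426, 398 and 369 in siADAR1. The groups overlapped almost completely (0.02 ± 0.10 SE, adjusted p = 0.864 by edgeR).

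Per length, LAMB3 was the most abundant of all 38 genes in both groups, at 151 ± 31 FPKM in control and 267 ± 56 in siADAR1 (SD, n = 3 per group). LAMA3 was far below LAMB3 in all 6 libraries, at 26.4 FPKM in control and 26.8 in siADAR1. The size of this gap depends on the gene lengths used, 14678 bases for LAMA3 and 4688 for LAMB3. In CPM the gap was smaller, with means of 391 for LAMA3 and 715 for LAMB3 in control. In siADAR1 these means were 397 and 1267 CPM. The ratio of LAMA3 to LAMB3 was 0.159, 0.184 and 0.188 in control and 0.0869, 0.107 and 0.112 in siADAR1. Every siADAR1 library was below every control, with replicate 1 the lowest of each group.

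**Figure D2:**
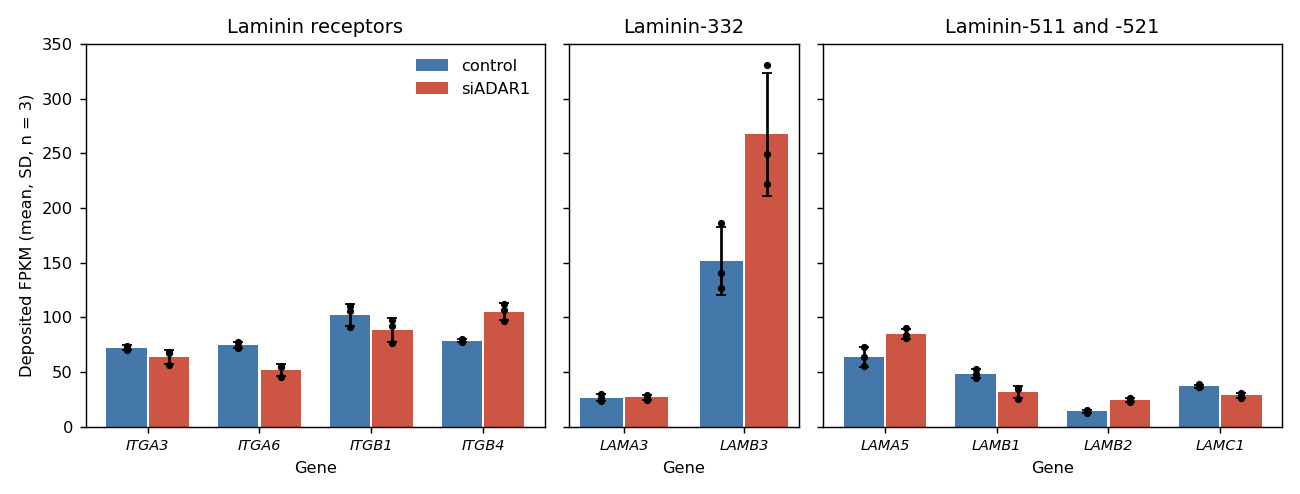
Deposited FPKM (vertical axis) of the laminin receptor subunits, 2 laminin-332 chains and the laminin-511 and laminin-521 chains (horizontal axes), as bars of the mean with SD (n = 3) and 1 point per library, control in blue and siADAR1 in red. LAMB3 stands above every other gene, ITGA6 and ITGB4 move apart, and LAMA3 stays at 26.4 and 26.8.

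The upstream sequence of LAMB3 is shown because it was the most abundant gene per length and rose while LAMA3 did not pass the test. RefSeq on GRCh38.p14 gives this gene several starts, and the stretches below are upstream of start 1 and start 3, cut back to bases outside the exons that GENCODE 29 annotates. In one, capitals mark a match to the NF-kB consensus, and in the other a match to the AP-1 motif TGANTCA, each searched on both strands. The 2 starts were chosen together with the motif marked in each, so they do not stand for the other starts, which are not shown.
LAMB3 start 1, chr1:209652467-209652675, minus strand: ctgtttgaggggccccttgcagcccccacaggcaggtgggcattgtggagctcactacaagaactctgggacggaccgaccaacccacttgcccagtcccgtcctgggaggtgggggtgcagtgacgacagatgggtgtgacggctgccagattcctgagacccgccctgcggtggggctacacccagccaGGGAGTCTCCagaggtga
LAMB3 start 3, chr1:209651395-209651624, minus strand: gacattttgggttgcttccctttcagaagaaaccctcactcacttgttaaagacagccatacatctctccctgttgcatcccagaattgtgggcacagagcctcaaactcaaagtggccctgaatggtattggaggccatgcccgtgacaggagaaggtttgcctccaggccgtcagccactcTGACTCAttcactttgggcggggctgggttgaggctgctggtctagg
The printed NF-kB match begins 59 bases before start 1, whose window of 250 bases held 3 such matches in all, the others outside the printed stretch. The AP-1 match begins 67 bases before start 3. The window of start 1 held 0 AP-1 matches, and that of start 3 held 0 NF-kB matches. In the 250 bases before a start, the AP-1 motif was found in 6.57% and the NF-kB consensus in 9.96% of 35116 RefSeq windows. Of the 38 genes, 26 were in that table with 33 windows, of which 2 held the AP-1 motif and 8 the NF-kB consensus. The AP-1 motif was found for LAMA3 and LAMB3, and the NF-kB consensus for ITGA1, ITGA5, ITGA10, ITGA11, ITGB1, ITGB8 and LAMB3. These matches describe the letters in a window only.

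The chains of laminin-511 and laminin-521 split, with the alpha chain higher, the gamma chain lower and the alternative beta chains in opposite directions. LAMA5 (chr20:62307955-62367312, minus strand), the alpha chain of both, was at 795, 914 and 1050 CPM in control and at 1171, 1298 and 1214 in siADAR1. Every siADAR1 library was above every control (1.33-fold; log2 fold change 0.42 ± 0.10 SE, adjusted p = 0.00299 by edgeR). LAMC1 (chr1:183023460-183145592, plus strand), the gamma chain of most laminins, was at 305, 309 and 328 CPM in control and at 221, 261 and 249 in siADAR1. It fell to 77.7% of control without overlap (-0.36 ± 0.09 SE, adjusted p = 0.00301 by edgeR).

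LAMB1 (chr7:107923799-108003255, minus strand), the beta chain of laminin-511, was at 364, 397 and 435 CPM in control and at 206, 283 and 289 in siADAR1. The groups were well apart, with siADAR1 replicate 1 the lowest (65.0% of control; -0.62 ± 0.12 SE, adjusted p = 0.000979 by edgeR). LAMB2 (chr3:49121114-49133118, minus strand), the beta chain of laminin-521, was at 86.4, 98.8 and 104 CPM in control and at 180, 173 and 158 in siADAR1. It was the laminin gene with the smallest p, and all siADAR1 libraries lay above all controls (1.76-fold; 0.82 ± 0.10 SE, adjusted p = 1.68e-05 by edgeR).

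Because LAMB1 fell and LAMB2 rose, the ratio of LAMB2 to LAMB1 was 0.281, 0.295 and 0.285 in control and 1.03, 0.725 and 0.647 in siADAR1. Controls were tightly grouped and all siADAR1 libraries were far above them, with replicate 1 past parity. This ratio was also chosen after the values were seen. Among the tested pairs, LAMA5 over LAMB1 was 1.31 in control and 2.75 in siADAR1, LAMB2 over LAMC1 0.376 and 0.862, and LAMA5 over LAMB2 4.56 and 3.47. None of these 3 overlapped between groups. The lowest chain of laminin-521 was LAMB2 in all libraries, at 14.0 ± 1.3 FPKM in control and 24.5 ± 1.7 in siADAR1 (SD). The lowest chain of laminin-511 was LAMC1, or LAMB1 in siADAR1 replicate 1, at 37.0 ± 1.5 FPKM in control and 28.4 ± 2.9 in siADAR1 (SD). In siADAR1 replicate 1 the order of these was turned, with 25.1 FPKM for laminin-511 and 26.0 for laminin-521. Transcript levels do not give the amounts of assembled trimers, which were not measured.

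Upstream sequence of these 2 beta chains is shown because they moved in opposite directions. Both stretches are from RefSeq on GRCh38.p14, upstream of start 1 and outside annotated exons.
LAMB1 start 1, chr7:108003256-108003411, minus strand: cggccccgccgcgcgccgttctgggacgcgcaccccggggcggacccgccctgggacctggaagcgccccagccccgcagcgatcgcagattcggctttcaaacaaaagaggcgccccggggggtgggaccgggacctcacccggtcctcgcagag
LAMB2 start 1, chr3:49133119-49133300, minus strand: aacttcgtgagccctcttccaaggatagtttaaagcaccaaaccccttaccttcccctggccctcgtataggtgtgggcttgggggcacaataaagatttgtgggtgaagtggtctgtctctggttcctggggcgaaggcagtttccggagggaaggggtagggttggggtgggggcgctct
The LAMB1 stretch was 75.0% G and C and the LAMB2 stretch 56.6%. Neither held a match to the AP-1 or the NF-kB motif, so no letters are in capitals.

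No strand-marking step is named in the library protocol, so reads of a gene and of an overlapping gene on the other strand cannot be told apart. The 3' end of LAMB1 overlaps DLD, a mitochondrial dehydrogenase gene, whose count was 38.1% of that of LAMB1 and which also fell (-0.72, adjusted p = 3.09e-05 by edgeR). LAMA5 overlaps ADRM1, a proteasome gene at 27.9% of its count, which did not pass (0.07, adjusted p = 0.597 by edgeR). How such reads were assigned is not given in the sources used here, and their part in these values was not tested.

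Other laminin alpha chains were lower in level, and some rose. LAMA4, known from vessels and mesenchyme, was at 86.2, 96.1 and 107 CPM in control and at 111, 129 and 127 in siADAR1. The groups were separated by a narrow gap (log2 fold change 0.34 ± 0.10 SE, adjusted p = 0.0124 by edgeR), and without siADAR1 replicate 2 the adjusted p was 0.0605. LAMA2, the chain of muscle laminin, was at 10.9, 13.9 and 18.8 CPM in control and at 30.3, 26.9 and 25.7 in siADAR1. All siADAR1 libraries were higher (1.90-fold; 0.93 ± 0.17 SE, adjusted p = 0.000682 by edgeR), and on the log2(FPKM + 1) scale the difference was 0.62. LAMA1, the alpha chain of the laminin of early embryos, was at 9.61 to 10.5 CPM in control and 7.49 to 10.5 in siADAR1 and did not pass.

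LAMB4 and LAMC3 were at the lower end. LAMB4 had 0.262 to 0.940 CPM in control and 0.698 to 1.58 in siADAR1, ranges that overlapped, and did not pass (1.08 ± 0.54 SE, adjusted p = 0.112 by edgeR). It was the only tested gene of the 25 with a control library under 10 counts, so it passed the filter through the siADAR1 libraries. LAMC3 had no count in any library. Per length, LAMA1, LAMA2 and LAMA4 were each the lowest chain of every laminin they form with LAMC1, at 0.625, 1.39 and 8.27 FPKM in control and 0.566, 2.64 and 10.5 in siADAR1.

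**Figure D3:**
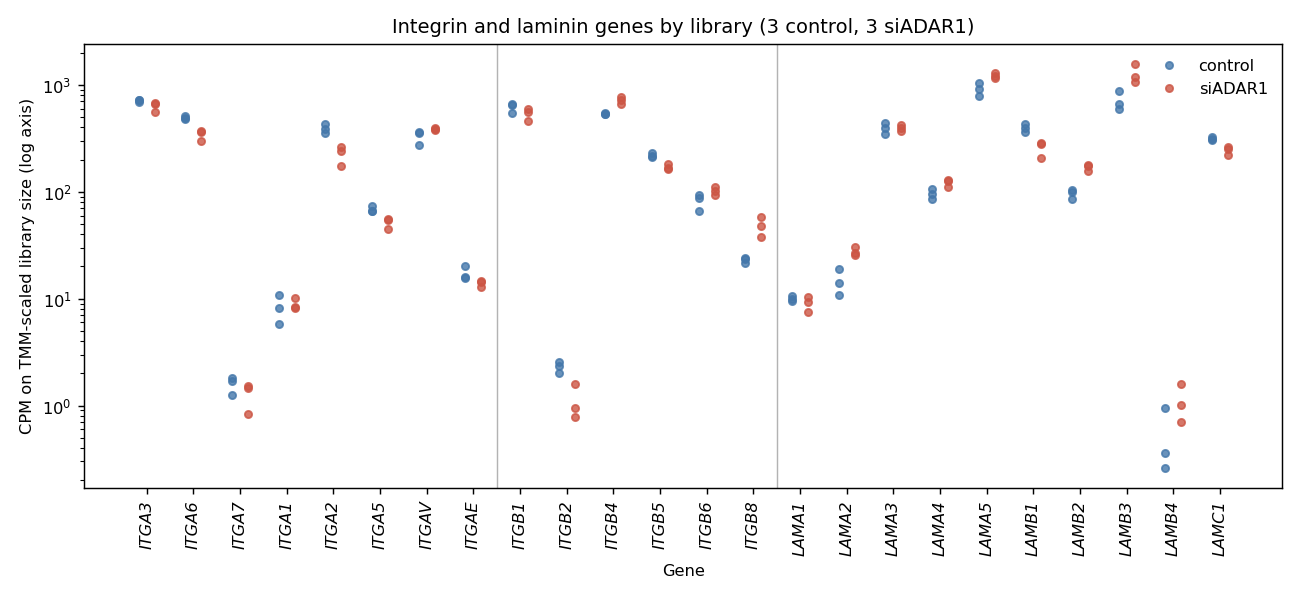
CPM on scaled library sizes (vertical log axis) of 24 of the 25 tested genes (horizontal axis; alpha integrins, beta integrins and laminins between the grey lines), with 1 point per library, control in blue and siADAR1 in red. Levels run from 0.262 CPM for LAMB4 in a control library to 1565 for LAMB3 in a siADAR1 library.

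The collagen receptor α2β1 had the largest fall among alpha subunits. ITGA2 (chr5:52989326-53094779, plus strand) was at 390, 354 and 428 CPM in control and at 176, 260 and 240 in siADAR1. The lowest control was well above the highest siADAR1 library, and siADAR1 replicate 1 was the lowest of all (57.7% of control; log2 fold change -0.79 ± 0.13 SE, adjusted p = 0.000345 by edgeR). ITGA2 over ITGB1 was 0.481 ± 0.060 in control and 0.317 ± 0.033 in siADAR1 (SD, n = 3 per group), without overlap. The other collagen-binding alpha subunit tested, ITGA1, was at 5.85 to 10.8 CPM in control and 8.12 to 10.1 in siADAR1 and did not pass. It overlaps PELO, which is on the same strand and had 606% of its count.

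The RGD-binding integrins split by beta subunit. ITGAV, which pairs with β1, β3, β5, β6 and β8, was at 277, 352 and 366 CPM in control and at 387, 379 and 391 in siADAR1. The groups did not overlap, with control replicate 1 low, and the test was not passed (log2 fold change 0.22 ± 0.10 SE, adjusted p = 0.0831 by edgeR). With library totals in place of scaled library sizes its adjusted p was 0.0134, and with the replicate number as a block 0.0337. Without control replicate 1 the log2 fold change was 0.09 (adjusted p = 0.338 by edgeR), and without both libraries numbered 1 it was 0.10 (adjusted p = 0.183).

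Its partner ITGB5, the vitronectin receptor subunit, was at 232, 213 and 216 CPM in control and at 182, 167 and 163 in siADAR1. It fell to 77.6% of control without overlap (-0.37 ± 0.08 SE, adjusted p = 0.00248 by edgeR). ITGB6 and ITGB8, whose αV pairs activate latent TGF-β, were both called higher. ITGB8 (chr7:20330702-20415754, plus strand) was at 21.6, 23.7 and 24.3 CPM in control and at 37.6, 47.7 and 57.8 in siADAR1. It had the largest called rise of the 25 genes, without overlap (2.06-fold; 1.04 ± 0.15 SE, adjusted p = 7.13e-05 by edgeR).

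ITGB6 was at 66.6, 87.1 and 92.5 CPM in control and at 92.7, 102 and 110 in siADAR1. The highest control and the lowest siADAR1 library were nearly equal, and the call was close to the threshold (0.31 ± 0.12 SE, adjusted p = 0.0461 by edgeR). Without control replicate 1, the lowest library, the log2 fold change was 0.17 and the adjusted p 0.161. Leaving out control replicate 2, siADAR1 replicate 2 or siADAR1 replicate 3 also ended the call, with adjusted p of 0.0682, 0.107 and 0.161. ITGAV over ITGB5 was 1.19 in control and 1.78 in siADAR1, and ITGAV over ITGB8 26.3 and 15.4, both without overlap. ITGAV over ITGB6 was 2.31 in control and 2.18 in siADAR1, with overlap. In both groups ITGB5 was the most abundant of the 3 per length, at 33.9 FPKM in control and 26.2 in siADAR1, followed by ITGB6 at 17.4 and 21.5 and ITGB8 at 1.52 and 3.11.

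The fibronectin receptor subunit ITGA5 was at 74.1, 65.8 and 65.8 CPM in control and at 44.7, 55.3 and 54.8 in siADAR1. It fell to 75.2% of control without overlap (-0.41 ± 0.11 SE, adjusted p = 0.00666 by edgeR). Without both libraries numbered 1, which were the farthest apart, the log2 fold change was -0.26, still past the threshold. ITGA5 over ITGB1 was 0.0887 ± 0.0155 in control and 0.0762 ± 0.0025 in siADAR1 (SD). The groups all but touched, and without control replicate 1, at 0.107 the highest library, the difference of the log2 ratios was -0.07 in place of -0.21.

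**Figure D4:**
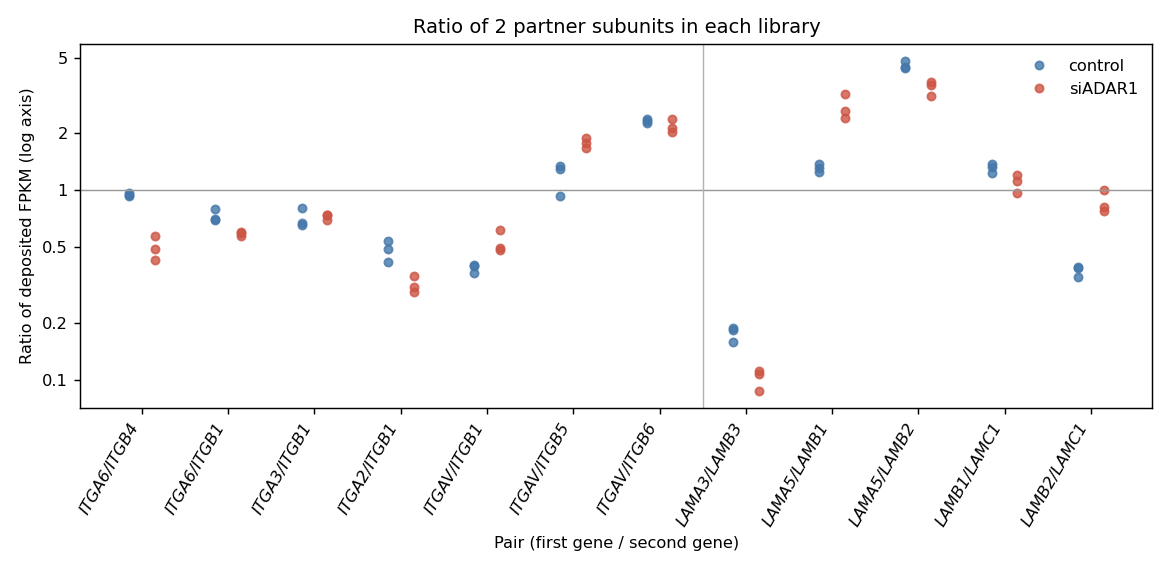
Ratio of the deposited FPKM of 2 partner subunits (vertical log axis) for 7 integrin pairs and 5 pairs of laminin chains (horizontal axis), with 1 point per library, control in blue and siADAR1 in red; the line marks a ratio of 1. ITGA6/ITGB4 leaves the line downwards in siADAR1, LAMB2/LAMC1 approaches it, and ITGA3/ITGB1 and ITGAV/ITGB6 overlap between groups.

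Apart from ITGAE, integrins of leukocytes and platelets were at or near the limit of detection. ITGB2, the beta subunit of leukocyte integrins, was at 2.53, 2.35 and 2.03 CPM in control and at 0.788, 0.953 and 1.59 in siADAR1. The groups did not overlap (log2 fold change -1.06 ± 0.37 SE, adjusted p = 0.0272 by edgeR), but DESeq2 gave an adjusted p of 0.0556. Without control replicate 1 or 2 its adjusted p was 0.0602 or 0.061, and without siADAR1 replicate 1 or 2 it was 0.0887 or 0.0832. Its antisense gene ITGB2-AS1 had 47.5% of its count, and reads of the pair cannot be told apart. ITGAE, which binds E-cadherin as a partner of β7, was at 15.6 to 20.1 CPM in control and 12.8 to 14.7 in siADAR1. It did not pass (-0.30 ± 0.15 SE, adjusted p = 0.107 by edgeR), and it overlaps HASPIN on the other strand, with 112% of its count, which fell (-0.73, adjusted p = 0.0032 by edgeR).

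The 13 untested genes were ITGA2B, ITGA4, ITGA8, ITGA9, ITGA10, ITGA11, ITGAD, ITGAL, ITGAM, ITGAX, ITGB3, ITGB7 and LAMC3. ITGA8, ITGAD, ITGAX and LAMC3 had 0 counts in all 6 libraries, and a count of 0 allows up to 0.169 to 0.202 CPM per library (3 counts, for counting error only). Of the 13, 11 had at most 13 counts in every library. ITGAM, a subunit of the complement receptor of myeloid cells, had 3, 0 and 1 counts in control and 40, 9 and 4 in siADAR1. siADAR1 replicate 1 thus held most of its counts. With no filter on low counts its log2 fold change was 3.49 (adjusted p = 0.000108 by edgeR), and in DESeq2 3.61 (adjusted p = 0.00561). On the log2(FPKM + 1) scale without a filter its difference was 0.205 (adjusted p = 0.309 by limma). Mean FPKM of ITGAM was 0.0143 in control and 0.179 in siADAR1, so the added 1 shrinks any difference, and that scale cannot decide on the call. ITGB7, the partner of ITGAE, had 17, 1 and 11 counts in control and 1, 3 and 7 in siADAR1. It was called lower in edgeR when control replicate 2 was left out (log2 fold change -1.93, adjusted p = 0.0473). It overlaps ZNF740 on the other strand, which had 2717 counts over all libraries against 40 for ITGB7, and reads of the 2 genes cannot be told apart. The platelet pair of ITGA2B and ITGB3 had 1 to 13 and 0 to 3 counts per library.

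Leukocyte and fibroblast markers were mostly low in level, and only the few that could be tested were called. They were measured because LAMA2, LAMA4 and the leukocyte integrins are best known from other cell types. Of 11 leukocyte markers 2 could be tested, CSF1R and CD8A, and both were called higher, against 26.0% of all genes. CSF1R had 1, 3 and 2 counts in control and 12, 10 and 14 in siADAR1, so it passed the filter on low counts only through the group where it is high. The summed level of the list was 1.64 to 2.08 CPM in control and 4.00 to 4.78 in siADAR1, with CD3E, MS4A1 and LYZ among the markers at 0. CD8A made up most of this sum, at a mean of 1.07 CPM in control and 3.02 in siADAR1. CD14, which was not tested, lay the other way, at 0.620 and 0.364 CPM. Of 9 fibroblast markers 3 could be tested, FAP, LUM and COL1A1, and all were called higher. FAP, with 5, 0 and 5 counts in control and 21, 12 and 19 in siADAR1, also passed the filter only through siADAR1. Their list summed to 40.7 to 59.5 CPM in control and 72.9 to 86.0 in siADAR1, with DCN at 0 in all libraries. LUM made up most of this sum, at a mean of 35.0 CPM in control and 57.9 in siADAR1. PDGFRB, which was not tested, lay the other way, at 0.944 and 0.533 CPM. The summed endothelial markers were at 1.69 to 3.22 CPM in control and 1.07 to 1.65 in siADAR1, with KDR at 0, and the 5 platelet markers at 1.03 to 1.38 and 0.507 to 0.826, with GP9 and PPBP at 0. The part of other cells in the values of LAMA2, LAMA4 and the leukocyte integrins was not tested.

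The neighbours of these genes in adhesion were read from lists of known partners, against the same background shares of 26.0% higher and 25.0% lower. Of 4 hemidesmosome partners, 2 rose, none fell and 2 did not pass. PLEC, which encodes the plectin that binds the β4 tail, was at 3725 CPM in control and 7829 in siADAR1 (log2 fold change 1.07 ± 0.13 SE). COL17A1, the transmembrane collagen of hemidesmosomes, was at 61.2 CPM in control and 73.9 in siADAR1 (0.27 ± 0.09 SE). DST, which encodes the other plakin, and CD151, a tetraspanin that binds laminin-binding integrins, did not pass (0.28 ± 0.35 and -0.06 ± 0.08 SE). Within this receptor complex ITGB4, PLEC and COL17A1 were thus called higher and ITGA6 lower.

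Of 15 other basement membrane genes, 12 were tested, of which 3 rose, 2 fell and 7 did not pass. COL7A1, the anchoring fibril collagen that binds laminin-332, was at 288 CPM in control and 575 in siADAR1 (log2 fold change 1.00 ± 0.15 SE). COL4A1 was at 0.472 CPM in control and 4.57 in siADAR1 (3.26 ± 0.38 SE), and COL4A2 was also called higher, from a lower level. With at most 10 counts in a control library for COL4A1 and 3 for COL4A2, these 2 of the 3 rises passed the filter through the siADAR1 libraries. NID1, the nidogen that binds the laminin gamma 1 chain, fell from 141 to 77.1 CPM (-0.87 ± 0.15 SE), in the same direction as LAMC1. COL18A1 also fell (-0.37), while the heparan sulphate proteoglycans AGRN (0.02) and HSPG2 (0.22) did not pass.

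Laminin receptors that are not integrins were called in 1 direction only: of 6 tested, 5 were lower, none higher and 1 did not pass. They were DAG1 (dystroglycan, log2 fold change -0.80), BCAM (-0.26), RPSA (-0.37), SDC1 (-0.90) and SDC3 (-1.75 ± 0.16 SE), with SDC4 at -0.04. The median of the list was -0.58. RPSA encodes a ribosomal protein that has also been described as a laminin receptor.

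Of 27 ligands of the other integrins, 17 were tested, of which 3 rose, 7 fell and 7 did not pass. Fibronectin (FN1), the ligand of α5β1 and several αV pairs, was at 360 CPM in control and 353 in siADAR1 and did not pass (-0.03 ± 0.11 SE). THBS1 fell from 2677 to 1488 CPM (-0.85), and MFGE8, an RGD protein bound by αVβ3 and αVβ5, had the largest fall (-0.98 ± 0.14 SE). TGFB1, whose latent form is bound by αVβ6 and αVβ8, fell (-0.53), as did its binding protein LTBP1 (-0.52), while TGFB3 rose (0.74). CDH1, the ligand of αEβ7, fell (-0.34). ICAM1, a ligand of β2 integrins, had the largest rise, from 0.871 to 3.22 CPM (1.87 ± 0.39 SE).

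Among 29 genes of integrin activation and focal adhesions, 25 were tested, of which 5 rose, 5 fell and 15 did not pass. PTK2, focal adhesion kinase, was at 290 CPM in control and 418 in siADAR1 (0.53 ± 0.09 SE), and the scaffold BCAR1 had the largest rise (0.77 ± 0.10 SE). The integrin activator TLN1 fell (-0.26), and TNS4 had the largest fall (-0.72 ± 0.19 SE). Vinculin (VCL, 0.05), paxillin (PXN, -0.16) and both kindlins of epithelia and mesenchyme, FERMT1 (-0.15) and FERMT2 (-0.21), did not pass.

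Set side by side as receptor and ligand, some of the listed pairs read as follows. For α6β4 and laminin-332, ITGB4 and LAMB3 rose, ITGA6 fell, and LAMA3 did not pass. For α3β1 and laminin-332, LAMB3 rose, and LAMA3, ITGA3 and ITGB1 did not pass. For α6β4 and laminin-511, ITGB4 and LAMA5 rose, and ITGA6, LAMB1 and LAMC1 fell. For α3β1 and laminin-521, LAMA5 and LAMB2 rose, LAMC1 fell, and neither receptor subunit was called. For α6β1 and laminin-411, ITGA6, LAMB1 and LAMC1 fell, LAMA4 rose, and ITGB1 did not pass. For α7β1 and laminin-211, LAMA2 rose and LAMB1 and LAMC1 fell, with ITGA7 at 0.246 FPKM in control and 0.197 in siADAR1. Also listed but not read out are α3β1 with laminin-511, α6β1 with laminin-111, laminin-332, laminin-511 and laminin-521, and α7β1 with laminin-111. For no receptor and laminin in the whole list did all subunits move the same way past the threshold. This follows from the receptor calls alone and is no further result. Each listed receptor holds ITGB1, which was not called, or pairs ITGA6 with ITGB4, which were called in opposite directions.

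Some of these genes are neighbours. ITGA1 and ITGA2 are 30.1 kb apart on chromosome 5, and LAMB1 and LAMB4 20.3 kb apart on chromosome 7. In both of these, the more abundant gene fell and the other did not pass, and the difference between neighbours was not tested.

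Libraries numbered 1 were often at the edge of their group. Of the 15 called genes, control replicate 1 was the control farthest from the siADAR1 mean for 10, and siADAR1 replicate 1 was the siADAR1 library farthest from the control mean for 9. Such counts were not made over all tested genes, so nothing particular to these genes is read from them. Across the whole table, chi-square per degree of freedom was 14.1 to 18.0 between replicate 1 and another library of its group. Between replicates 2 and 3 it was 5.02 in control and 3.95 in siADAR1. With both libraries numbered 1 left out, 9 genes were called higher and 7 lower.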

How the data were processed

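Polyadenylated RNA of 3 control and 3 siADAR1 samples was sequenced. The submitters' processing notes name HISAT2 2.0.5, CASAVA and fastp; which tool, build and annotation were used for counting is not given in the sources used here. The authors deposited whole-number counts per gene, not normalized, and FPKM per library, per the file headers; their FPKM group means were not used. Coordinates of all 38 genes equalled those of GENCODE 29 on GRCh38. Samples were grouped by title, and 0 columns lacked a sample.

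Counts were tested in R 4.3.3 with edgeR 4.0.16: filterByExpr (minimum count 10), TMM scaling, a robust quasi-likelihood F test, two-sided, and Benjamini-Hochberg adjustment over 15294 genes at 0.05. CPM used scaled library sizes; SE is the log2 fold change over the root of F. Partner ratios used FPKM and exact permutation tests. The fit was tested on simulated data. The members, lists and pairs were chosen with earlier results of these data known. Named were ADAR, every member, and the largest rise and fall of each list, except that 1 member is not reported here; other list genes were named after their values were seen. Alternatives were other scalings and filters, DESeq2 1.42.0, limma-voom and limma 3.58.1 on log2(FPKM + 0.1 or 1), a replicate block, and leaving libraries out. Replicates were not duplicates of a library: their counts differed beyond sampling noise (chi-square per degree of freedom 3.95 to 18.0). Intervals and floors cover counting error only.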

Additional observations from a re-analysis of the deposited data

How the results depend on the processing

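Under the 18 alternatives to the edgeR test, 12 of the 15 called genes kept their call wherever they were tested, and no called gene changed direction. The exceptions were ITGB2, ITGB6 and LAMA4: ITGB2 lost its call in 7 of 16 alternatives, ITGB6 in 8 of 18 and LAMA4 in 2 of 18. Of the 10 genes not called, 4 passed under at least 1 alternative, among them ITGAV and ITGB1, and LAMB4 without control replicate 2 (log2 fold change 1.79, adjusted p = 0.0343). Leaving out 1 library at a time gave 6 to 8 genes higher and 6 to 7 lower, an ADAR log2 fold change of -2.38 to -2.23, and 25 to 29 partner pairs without overlap. Leaving out a library cannot make separated ratios overlap, so this count of pairs could not fall below 25 and says nothing on stability. The highest count of genes called higher was 10, with library totals in place of scaled sizes; that scaling moved the median of all genes by 0.117 and gave 4886 genes higher and 2888 lower over all genes, and the median of the 25 was then 0.14. Without control replicate 1 that median was -0.12. With the replicate number as a block, 9 genes were higher and 8 lower, with ITGAV and ITGB1 added, and 27 of 33 partner ratios had the same sign in all same-numbered differences. The 25 pairs without overlap have the same sign under any numbering, so at least 25 of the 33 was fixed in advance. Whether the numbers pair the samples is not settled by these values. Deviations of same-numbered libraries correlated at 0.251, 0.0844 and 0.106, against -0.169 to 0.0917 for libraries of different number. Control replicates 1 and 3 correlated best with the siADAR1 library of their own number. Control replicate 2 correlated best with siADAR1 replicate 3 (0.0917). With 3 libraries a group, partner ratios cannot reach a permutation p below 0.1, and genes under about 10 counts were not tested.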
